A study of Mus musculus with 12 samples.

Results

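The effect of non-alcoholic steatohepatitis (NASH), averaged over an early and a late time, was measured in mouse kidney cortex from all 12 of the 12 RNA sequencing libraries of the study. Each gene's average effect is the mean of 2 differences, NASH minus control at 12 weeks and NASH minus control at 24 weeks, on the log2 values that the authors deposited. NASH and control libraries of the same time and the same replicate number form 6 pairs, and 1560 of 11614 genes moved the same way in all 6. The mice were of strain C57BL/6J. Control mice had a normal diet with corn oil, and NASH mice a Western diet with carbon tetrachloride (CCl4), each for 12 or for 24 weeks, with 3 libraries in each of the 4 groups. Per the labels' protocols the groups held 6 control and 6 NASH mice at 12 weeks and 8 control and 10 NASH mice at 24 weeks, as many males as females in each, and RNA integrity was above 7.5. The sex behind a library, and whether a library is 1 animal or a pool, are not given in the sources used here. P-values therefore measure the spread between these samples, and in the main fit only what is left of it after differences between replicate numbers are removed. Diet, CCl4 and liver disease were changed together, and their parts in any difference cannot be told apart.

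The kidney cortex consists mostly of proximal tubule, which takes back sugar, amino acids, bicarbonate and phosphate from the filtrate, burns fatty acids, makes glucose and secretes organic ions. In liver disease bile acids, lipids and toxins that the liver would clear reach the kidney through the blood, and the tubule has carriers and conjugating enzymes for them. A Western diet feeds fat and cholesterol, which lower sterol synthesis through SREBP2 in cells that take up enough sterol, and CCl4 is turned into a reactive radical by cytochrome P450 enzymes, chiefly in the liver.

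Estimated from the steps between the deposited values, depth ran from about 7170000 reads in NASH replicate 2 at 12 weeks to 14100000 in control replicate 2 at 24 weeks. Replicate 1 stood apart from replicates 2 and 3 in all 4 groups, for instance in the X-inactivation RNA Xist, which lay between 10.60 and 11.54 in the 4 libraries numbered 1 and between 2.97 and 4.86 in the other 8. By Xist the libraries thus split 4 to 8, although the labels give as many males as females among the mice of each group. The summed level of 20 proximal tubule markers lay between 18.6 and 18.9 in every library. No marker of neutrophils (10 listed) or adrenal cortex (9 listed) was among the genes of the files, and of the T and NK cell and the B and plasma cell markers 1 each was.

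With the replicate number as a block, 1207 genes passed an adjusted p of 0.05 for the average effect (limma, Benjamini-Hochberg over 11614 genes), which is 10.4% of all genes. Of these, 352 were higher in NASH (3.03% of all genes) and 855 lower (7.36%). Another scaling of the libraries moved this split, to 534 higher and 627 lower after quantile normalization and 628 and 615 after median-of-ratios scaling. The same fit without the block called 0 genes, with 1579 at an unadjusted p under 0.05 against 3350 with it. The genes nearest to a call without the block were Slc16a1 with an adjusted p of 0.052 and Gsta3, Mogat2 and Sorbs3 with 0.074. Every "rose" and "fell" below therefore rests on comparing libraries of the same number. A block for each number within each time, which fits the 6 pairs themselves, called 840 genes, 243 higher and 597 lower.

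Moving the same way in all 6 pairs was seen in 671 genes that were higher (5.78% of all genes) and 889 that were lower (7.65%). Of the 1560, 734 were also called (6.32% of all genes), 278 higher (2.39%) and 456 lower (3.93%). That is 47.1% of the genes with 6 like pairs and 60.8% of the called genes. All 6 NASH libraries lay above all 6 controls in 50 genes (0.431%) and below them in 41 (0.353%).

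The average was carried more by 12 weeks than by 24 weeks. By itself the 12-week difference called 1494 genes (12.9%), and the 24-week difference called 1 (0.00861%), Azgp1, with 1124 at an unadjusted p under 0.05. The larger absolute change was at 12 weeks in 1066 of the called genes, or 88.3%, where all genes gave 67.2%. Opposite signs at the 2 times were seen in 42 called genes (3.48% of them), a count that calling on the average itself keeps low. The difference between the 2 effects passed in 1 gene, Nfil3 (0.00861%), whose call was lost without 7 of the 12 libraries (limma adjusted p up to 0.222), and 1489 genes had an unadjusted p under 0.05 for it, so for no other gene was a difference between the times shown. Single libraries also mattered. The number of called genes lay between 210, without control replicate 3 at 24 weeks, and 1093, without control replicate 2 at 24 weeks, and 179 of the 1207 were called whichever library was left out. Of the genes named below, a call is said to have held in all libraries where it passed without each of the 12 in turn. This covers the 12 leave-out fits and no other setting. Of 103 called genes given in the text, 37 held in this way. Every alternative that kept the block called 28. In replicates 2 and 3 only 54 of the 103 lost their call, and with no mean-variance trend 36.

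**Figure D1:**
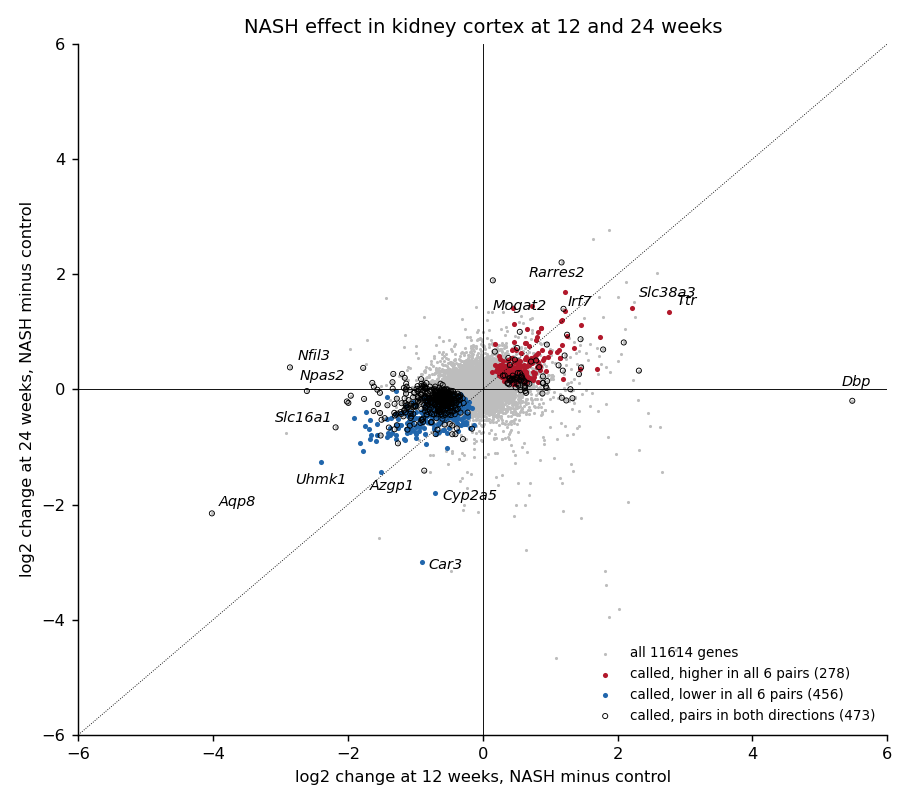
Change at 12 weeks (x axis) against change at 24 weeks (y axis), both as log2 differences of NASH minus control, for all 11614 genes. Red and blue points are the 278 and 456 called genes that moved the same way in all 6 pairs, open circles the other called genes, and the dotted line marks equal change. Most coloured points lie farther from 0 along the 12-week axis, Azgp1 lies on the line, and Dbp, Npas2 and Nfil3 lie far from 0 along the 12-week axis and near 0 along the other.

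Changes in NASH went with transcript length. Among the 2904 shortest genes (54 to 1837 bases in the files) the median average change was 0.14, with 260 genes called higher and 49 lower, and among the 2904 longest (4408 to 81931 bases) it was -0.18, with 9 called higher and 488 lower. GC content moved the same way, with a median of 0.08 in the 2843 genes richest in GC and -0.12 in the 2844 poorest. The pair of replicate 2 at 24 weeks went against the others, with a median of 0.092 among the longest genes. Removing a trend on length and GC from each library left 337 called genes, 70 higher and 267 lower. What sets this trend was not tested, and values with it removed stand beside the gene groups made of short transcripts. Most single genes below, rises and decreases alike, are printed without that value. Of the called genes given in the text and tested with the trend removed, 50 kept their call, 49 lost it and 1 changed sign.

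**Figure D2:**
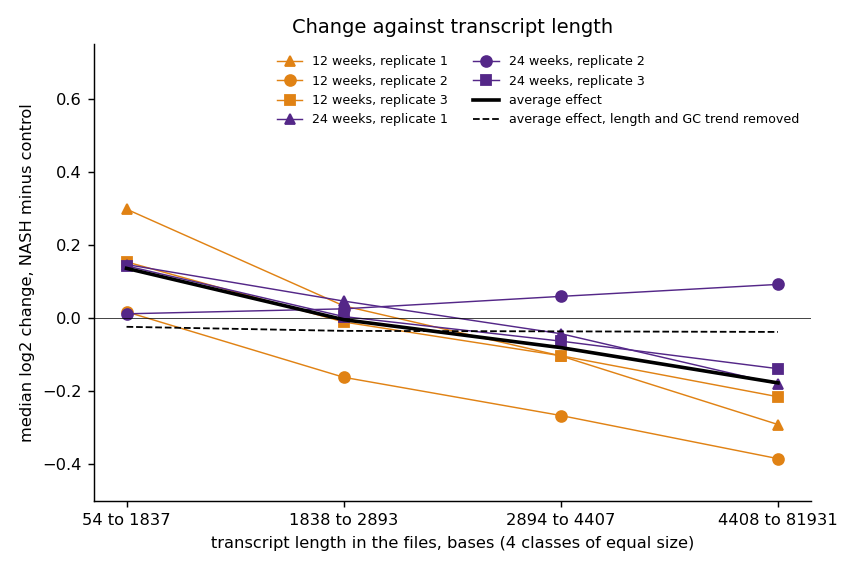
Median log2 change of NASH minus control in 4 classes of genes by transcript length (x axis), for each of the 6 pairs (coloured lines), for the average effect (thick black line) and for the average effect with the length and GC trend removed (dashed). The average falls from 0.14 to -0.18 across the classes, 5 of the 6 pairs fall, and replicate 2 at 24 weeks rises to 0.092.

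The lipid-mobilizing glycoprotein Azgp1 (gene 12007, mm10 chr5:137981521-137990232) had the smallest p of all genes. Azgp1 read 8.50, 11.79 and 12.07 in the controls against 6.71, 10.53 and 10.57 in NASH at 12 weeks, and 8.58, 12.02 and 12.03 against 7.11, 10.64 and 10.59 at 24 weeks, for replicates 1, 2 and 3 in this order here and below. Replicate 1 was low in every group, so the groups overlap as a whole, but NASH was below its own control in each pair by at least 1.26. Azgp1 fell by 1.47 on the log2 scale (95% interval -1.65 to -1.30), a 2.78-fold decrease with an adjusted p of 1.96e-05 in limma. The change was -1.52 at 12 weeks and -1.43 at 24 weeks, and the call held in all libraries, with an adjusted p of at most 0.000404.

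Next by p came Uhmk1, which encodes a kinase that acts on splicing factors and stathmin; it lies under the level rule for named genes and was chosen after its values were seen. Uhmk1 read 9.19, 7.25 and 7.99 in the controls against 6.87, 4.67 and 5.67 in NASH at 12 weeks, and 8.40, 6.54 and 7.43 against 7.11, 5.74 and 5.71 at 24 weeks. The groups were apart at 12 weeks and overlapped at 24 weeks, and all 6 pairs were lower in NASH. It fell by 1.84 (-2.17 to -1.50; limma adjusted p = 0.000795), a 3.57-fold decrease that held in all libraries.

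Both subunits of the organic solute transporter, the basolateral carrier that lets bile acids and steroids out of epithelial cells, rose together. This transporter works as a pair of Slc51a and Slc51b, and the bile acid receptor FXR is known to induce both genes. Their promoters are shown because the partners moved in the same direction in every pair. Each runs from 250 bases before to 50 bases after the gene's start, read on the gene's own minus strand from RefSeq on GRCm38.p6, the same assembly as mm10. Slc51a is at chr16:32487830-32488129 and Slc51b at chr9:65422724-65423023. Capitals mark the nuclear receptor core motif AGGTCA or its reverse complement TGACCT, and the E-box CACGTG that clock and other basic helix-loop-helix factors bind.
Slc51a: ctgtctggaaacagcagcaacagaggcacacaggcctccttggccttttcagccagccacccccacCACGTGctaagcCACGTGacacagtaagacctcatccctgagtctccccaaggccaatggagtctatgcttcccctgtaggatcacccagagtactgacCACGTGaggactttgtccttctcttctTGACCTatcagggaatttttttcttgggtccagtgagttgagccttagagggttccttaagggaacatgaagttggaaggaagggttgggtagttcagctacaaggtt
Slc51b: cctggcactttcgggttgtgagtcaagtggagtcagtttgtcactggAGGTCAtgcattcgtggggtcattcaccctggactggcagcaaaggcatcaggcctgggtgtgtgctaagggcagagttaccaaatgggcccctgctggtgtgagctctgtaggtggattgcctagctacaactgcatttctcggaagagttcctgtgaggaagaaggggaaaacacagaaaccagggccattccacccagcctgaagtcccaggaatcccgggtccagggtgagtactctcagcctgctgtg
The receptor motif, searched on both strands, is in 16.3% of 32851 RefSeq promoters of this length and the E-box in 7.15%. Slc51a holds 3 E-boxes and 1 receptor motif and Slc51b holds 1 receptor motif, matches of letters only.

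Slc51a (gene 106407) read 9.85, 10.27 and 10.32 in the controls against 10.57, 11.80 and 11.46 in NASH at 12 weeks, and 9.48, 10.24 and 9.91 against 9.93, 10.58 and 11.16 at 24 weeks. NASH was above the controls throughout at 12 weeks, and at 24 weeks the low NASH replicate 1 overlapped them. Slc51a rose by 0.91 (0.62 to 1.19), or 1.88-fold, with a limma adjusted p of 0.0098. Slc51b (gene 330962) read 8.08, 8.54 and 8.51 in the controls against 8.76, 9.03 and 8.81 in NASH at 12 weeks, and 8.38, 8.70 and 8.31 against 8.95, 9.42 and 9.10 at 24 weeks. No NASH library overlapped any control. Slc51b rose by 0.59 (0.41 to 0.77), or 1.51-fold, with an adjusted p of 0.00972 in limma. Both calls held in all libraries, and that of Slc51b, a short transcript, was lost with the length and GC trend removed. The difference between the times was not shown for either, at 1.13 and 0.68 for Slc51a and 0.49 and 0.69 for Slc51b.

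Of all 11614 genes 43.8% had an average change above 0, against which the lists below can be read. Of 23 measured organic ion transporters 15 were above 0, 4 rose and 1 fell, and 4 were higher and 1 lower in all 6 pairs, with a median average change of 0.17 against -0.04 over all genes. The list's median was 0.35 and 0.47 in the pairs of replicate 1 and between -0.0048 and 0.052 in the other 4, and the median average change was 0.0071 in replicates 2 and 3 only and 0.082 without NASH replicate 1 at 24 weeks. With the length and GC trend removed 1 rose and 0 fell. Apart from the Slc51 genes, Slc22a4, a carrier of ergothioneine and organic cations, rose by 0.39 (limma adjusted p = 0.0268) but was lower in 1 pair. Abcc2, which pumps conjugates into the urine, was lower in all 6 pairs and fell by 0.48 (limma adjusted p = 0.031). Calls of Slc22a4 and Abcc2 were lost without 7 and 8 of the 12 libraries, with adjusted p up to 0.0638 and 0.0798.

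**Figure D3:**
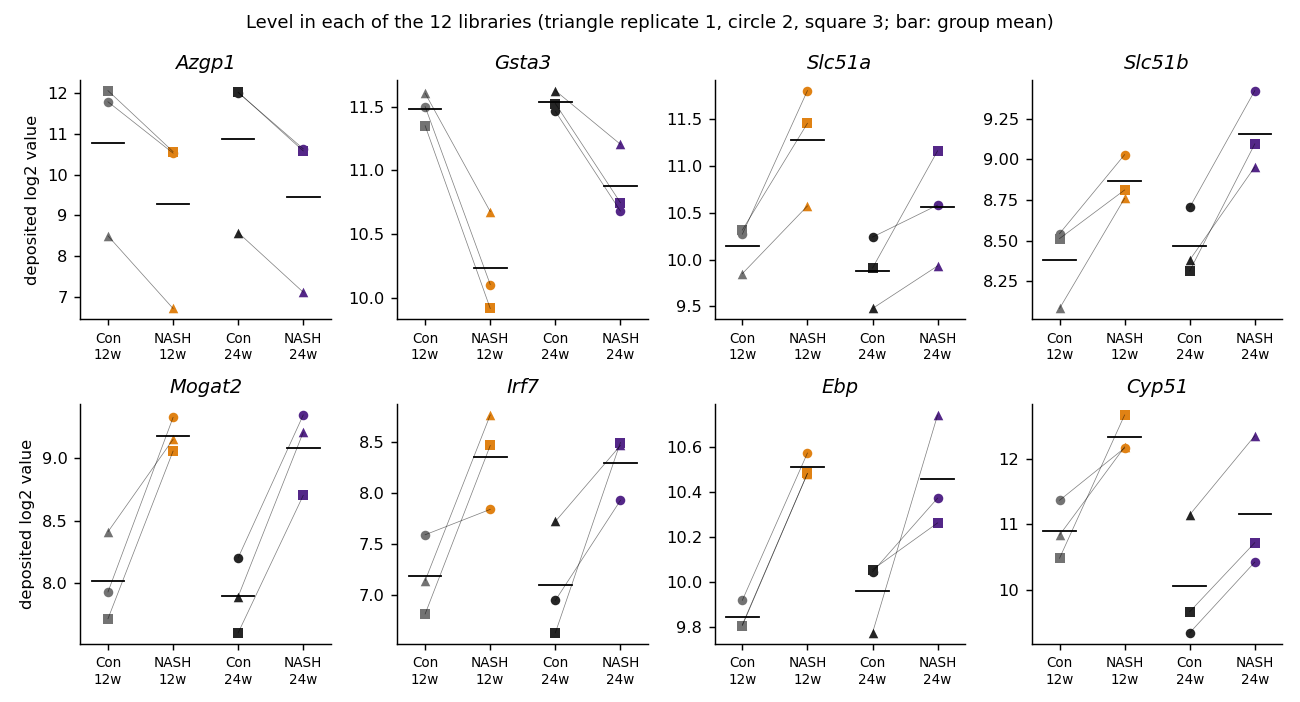
Deposited log2 value (y axis) of 8 genes in each library of the 4 groups (x axis), with thin lines joining libraries of the same time and replicate number and bars at group means. Every line falls for Azgp1 and Gsta3 and rises for Slc51a, Slc51b, Mogat2, Irf7, Ebp and Cyp51.

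Lipid genes did not move as one. Mogat2 (gene 233549, mm10 chr7:99219084-99238611), which makes diacylglycerol from monoacylglycerol, read 8.41, 7.93 and 7.72 in the controls against 9.15, 9.33 and 9.06 in NASH at 12 weeks, and 7.89, 8.20 and 7.61 against 9.21, 9.35 and 8.70 at 24 weeks. All 6 NASH libraries were above all 6 controls, with pair differences of at least 0.74. Mogat2 rose by 1.17 (0.93 to 1.41), or 2.25-fold (limma adjusted p = 0.00126), with 1.16 at 12 weeks and 1.18 at 24 weeks, and the call held in all libraries.

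Acly, which makes the acetyl-CoA used for fatty acids and sterols, and Gpam, which starts glycerolipid synthesis, went the other way. Acly read 11.71, 11.39 and 11.41 in the controls against 11.56, 10.92 and 10.92 in NASH at 12 weeks, and 12.57, 11.79 and 11.59 against 11.67, 11.09 and 11.03 at 24 weeks. Replicate 1 was the highest of each group, and NASH was lower in every pair. Acly fell by 0.55 (-0.73 to -0.37; limma adjusted p = 0.0098) and held in all libraries, and Gpam fell by 0.83 (-1.18 to -0.49; 0.0154), with its call lost without control replicate 3 at 24 weeks (limma adjusted p = 0.0508). Mlxipl, the sugar-sensing activator ChREBP, was higher in all 6 pairs and rose by 0.34 (limma adjusted p = 0.0242), a call lost without 5 of the 12 libraries (up to 0.0595). In the list of 19 fatty acid and triglyceride synthesis genes 1 rose and 2 fell, 5 were above 0 and the median was -0.06. Without control replicate 1 at 24 weeks 10 were above 0 and the median was 0.08. The pair of that library had the lowest median of the 6 for this list, at -0.74, and for 13 fat cell markers, at -5.55. Its fat cell signal, at a summed level of 15.42, was the highest of the 12 libraries, and its part in the result was not tested.

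Apob, the backbone protein of lipoproteins that the proximal tubule also makes, was lower in NASH. Apob read 12.77, 11.50 and 11.65 in the controls against 11.93, 10.62 and 11.36 in NASH at 12 weeks, and 12.70, 11.77 and 11.94 against 12.31, 11.07 and 11.16 at 24 weeks. It was highest in replicate 1 of each group, and lower in NASH in all 6 pairs. Apob fell by 0.65 (-0.86 to -0.44; limma adjusted p = 0.0098) and held in all libraries. The lipid droplet proteins Fitm1 and Fitm2 pointed in opposite directions. Fitm1 was higher in all 6 pairs and rose by 0.85 (limma adjusted p = 0.0195), lost without control replicate 3 at 12 weeks and NASH replicate 3 at 24 weeks (up to 0.057) and with the length and GC trend removed. Fitm2 was lower in 5 pairs and fell by 0.58 (0.0352), lost without 9 of the 12 libraries (limma adjusted p up to 0.0942). The main droplet coat gene Plin2 was at 0.07 (limma adjusted p = 0.842), with 0.29 at 12 weeks and -0.14 at 24 weeks.

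Fatty acid oxidation and PPARA target genes gave 0 calls among 26 in limma and 2 at an unadjusted p under 0.05, with 11 above 0 and a median of -0.02. With a block within each time 2 were called lower. Cpt1a, which admits fatty acids to mitochondria, was at -0.29 (limma adjusted p = 0.0964) and was lower in all 6 pairs without passing the test.

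Genes of cholesterol synthesis changed in both directions. Of 22 measured genes 7 were above 0, 2 rose and 1 fell, 3 were higher and 1 lower in all 6 pairs, and the median was -0.18. With a block within each time 3 rose and 2 fell, and with the length and GC trend removed 2 rose and 2 fell. The 2 genes described next are both higher, unlike most of the list. Ebp, the sterol isomerase, read 9.81, 9.92 and 9.80 in the controls against 10.48, 10.57 and 10.48 in NASH at 12 weeks, and 9.77, 10.04 and 10.05 against 10.74, 10.37 and 10.26 at 24 weeks. Every NASH library lay above every control. Ebp rose by 0.58 (0.38 to 0.79; limma adjusted p = 0.0101) and held in all libraries.

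Cyp51, the lanosterol demethylase, read 10.84, 11.37 and 10.48 in the controls against 12.19, 12.17 and 12.68 in NASH at 12 weeks, and 11.15, 9.34 and 9.66 against 12.36, 10.42 and 10.72 at 24 weeks. It was higher in every pair by at least 0.80, with controls and NASH overlapping at 24 weeks because replicate 1 was high. Cyp51 rose by 1.28 (0.60 to 1.97), or 2.44-fold (limma adjusted p = 0.0301), but without 8 of the 12 libraries the call was lost (up to 0.0803). Srebf2, which codes for the main activator of these genes, was at -0.39 (limma adjusted p = 0.0549).

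Some targets of the antioxidant factor NRF2 fell. Gsta3 (gene 14859, mm10 chr1:21240585-21265575), a glutathione transferase of the alpha class that NRF2 is known to induce, gave the clearest values. Its promoter on the plus strand (chr1:21240335-21240634, GRCm38.p6, RefSeq) is shown with a match to the core of the antioxidant response element, TGACNNNGC with N any base, in capitals.
Gsta3: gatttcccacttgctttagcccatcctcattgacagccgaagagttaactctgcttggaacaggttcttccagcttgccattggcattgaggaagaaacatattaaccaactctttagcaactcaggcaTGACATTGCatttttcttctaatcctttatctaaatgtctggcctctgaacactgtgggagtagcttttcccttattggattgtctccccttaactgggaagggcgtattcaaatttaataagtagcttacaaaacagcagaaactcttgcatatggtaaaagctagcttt
This core, on either strand, is in 12.4% of the 32851 promoters. Gsta3 read 11.61, 11.50 and 11.35 in the controls against 10.68, 10.10 and 9.91 in NASH at 12 weeks, and 11.63, 11.47 and 11.53 against 11.21, 10.68 and 10.75 at 24 weeks. All 6 NASH libraries were below all 6 controls. Gsta3 fell by 0.96 (-1.15 to -0.77), or 1.94-fold (limma adjusted p = 0.00126), more at 12 weeks (-1.26) than at 24 weeks (-0.66) by its point values, and held in all libraries.

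Of 20 measured NRF2 targets 5 fell and 0 rose, against backgrounds of 7.36% and 3.03%, and 3 were lower in all 6 pairs. The others that fell were Srxn1, which repairs peroxiredoxins, by 0.32, Pgd of the pentose phosphate pathway by 0.37, Txnrd1, thioredoxin reductase, by 0.45, and Nqo1, a quinone reductase, by 0.69. Each of these calls was lost without 8 or more of the 12 libraries, with limma adjusted p up to 0.0803 for Srxn1, 0.102 for Pgd, 0.0991 for Txnrd1 and 0.129 for Nqo1, and under median-of-ratios scaling 1 gene of the list rose and 1 fell. With a block within each time 1 rose and 4 fell. Hmox1, which degrades haem, was lower in all 6 pairs at -1.11 (limma adjusted p = 0.077), with -0.79 at 12 weeks and -1.43 at 24 weeks.

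Proximal tubule carriers changed in both directions. Slc16a1, the monocarboxylate transporter MCT1 for lactate and ketone bodies, read 10.79, 10.49 and 10.88 in the controls against 9.13, 8.86 and 8.44 in NASH at 12 weeks, and 10.53, 11.07 and 11.15 against 10.36, 10.37 and 10.55 at 24 weeks. NASH was far below the controls at 12 weeks, and at 24 weeks replicates 1 to 3 fell by less and the highest NASH library was just above the lowest control. Slc16a1 fell by 1.20 (-1.52 to -0.89), or 2.3-fold (limma adjusted p = 0.00629).

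Slc9a3, the sodium-proton exchanger NHE3 of the brush border, read 10.27, 9.09 and 9.60 in the controls against 9.15, 8.58 and 8.43 in NASH at 12 weeks, and 9.94, 9.11 and 9.72 against 9.19, 8.87 and 8.75 at 24 weeks. The groups overlapped, since replicate 1 was high in each, and all 6 pairs were lower. Slc9a3 fell by 0.80 (-1.06 to -0.53; limma adjusted p = 0.0098). Clcn5, the endosomal chloride-proton exchanger needed for protein uptake, fell by 0.92 (-1.25 to -0.59; limma adjusted p = 0.0104) with all 6 pairs lower. The calls of Slc16a1, Slc9a3 and Clcn5 held in all libraries. Slc4a4, which returns bicarbonate to the blood, was lower in all 6 pairs and fell by 0.42 (limma adjusted p = 0.0418), a call lost without 9 of the 12 (up to 0.109).

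Slc38a3, the basolateral glutamine carrier SNAT3 that feeds ammonia production, read 7.60, 8.84 and 6.70 in the controls against 10.64, 9.18 and 9.95 in NASH at 12 weeks, and 8.13, 9.53 and 9.57 against 10.96, 10.90 and 9.63 at 24 weeks. Within each time NASH lay above the controls, narrowly so for replicate 3 at 24 weeks. Slc38a3 rose by 1.82 (0.94 to 2.69), or 3.52-fold (limma adjusted p = 0.024), lost without 4 of the 12 libraries (up to 0.0639). In the list of 28 amino acid and monocarboxylate transporters 3 rose and 4 fell, with a median of -0.17. With a block within each time 3 rose and 2 fell, and with the length and GC trend removed 1 rose and 1 fell. Pck1, an enzyme of glucose synthesis that acidosis is known to raise, was at 1.09 (limma adjusted p = 0.0643), with 1.88 at 12 weeks and 0.30 at 24 weeks. The phosphate carrier Slc34a1 was at -0.04 (0.851).

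Several enzymes of small-molecule metabolism rose in all 6 pairs. Aspg, an asparaginase and lysophospholipase, read 6.37, 8.41 and 8.26 in the controls against 8.33, 9.23 and 9.54 in NASH at 12 weeks, and 7.42, 8.78 and 8.68 against 8.67, 9.20 and 9.19 at 24 weeks. Replicate 1 was low in each group and NASH was higher in every pair by at least 0.42. Aspg rose by 1.04 (0.66 to 1.41; limma adjusted p = 0.011). Nat8f6 and Nat8f5 belong to a cluster of N-acetyltransferase-like genes on chromosome 6, close in sequence, and how reads were divided between them is uncertain. Nat8f6 read 8.72, 9.81 and 9.51 in the controls against 9.55, 11.01 and 10.79 in NASH at 12 weeks, and 8.41, 9.59 and 9.25 against 8.81, 10.28 and 10.09 at 24 weeks. Its replicate 1 was lowest in each group and all pairs were higher, by at least 0.40. Nat8f6 rose by 0.87 (0.69 to 1.06; limma adjusted p = 0.00126) and Nat8f5 by 0.89 (0.58 to 1.21; 0.0101). Hyi, hydroxypyruvate isomerase, rose by 0.77 (0.50 to 1.04; limma adjusted p = 0.00998). These 4 calls held in all libraries.

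Guca2b, which codes for the natriuretic peptide uroguanylin, read 11.15, 12.30 and 12.24 in the controls against 12.40, 13.01 and 12.94 in NASH at 12 weeks, and 11.61, 12.55 and 12.18 against 12.65, 13.05 and 12.71 at 24 weeks. NASH was above the controls at each time. Guca2b rose by 0.78 (0.53 to 1.03; limma adjusted p = 0.0098), and Sorbs3, the adhesion adaptor vinexin, by 0.69 (0.48 to 0.90; 0.00936). For Sorbs3 no NASH library overlapped any control, and both calls held in all libraries. Echdc2, an enoyl-CoA hydratase-like gene, was higher in all 6 pairs and rose by 0.44 (limma adjusted p = 0.0098), lost only with the length and GC trend removed or without the block.

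Lower in all 6 pairs were also genes of glycosylation, RNA editing and phosphatase function. C1galt1, which builds the core of O-linked glycans, read 9.41, 8.61 and 9.01 in the controls against 7.55, 7.43 and 7.996 in NASH at 12 weeks, and 8.84, 7.79 and 8.62 against 7.90, 7.51 and 7.56 at 24 weeks. The groups were apart at 12 weeks and touched at 24 weeks. C1galt1 fell by 1.05 (-1.36 to -0.75; limma adjusted p = 0.00919). A1cf, the partner protein of APOBEC1 in editing of apolipoprotein B RNA, read 10.86, 9.60 and 10.24 in the controls against 9.37, 8.60 and 8.66 in NASH at 12 weeks, and 10.30, 9.33 and 10.08 against 9.64, 9.08 and 9.51 at 24 weeks. It was lower in each pair, and by its point values more so at 12 weeks. A1cf fell by 0.93 (-1.16 to -0.69; limma adjusted p = 0.00546), as did the hydrolase Abhd2 by 0.87 (-1.16 to -0.59; 0.0098).

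Smaller but even decreases were seen in Nudt12, a peroxisomal hydrolase of NADH, by 0.63 (-0.81 to -0.46; limma adjusted p = 0.00919), Tuba4a, an alpha tubulin, by 0.64 (-0.86 to -0.42; 0.0098), and Ppm1b, a protein phosphatase, by 0.50 (-0.65 to -0.35; 0.00936). All 6 NASH libraries were below all 6 controls for Nudt12 and Tuba4a. All of these calls, from C1galt1 to Ppm1b, held in all libraries.

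**Figure D4:**
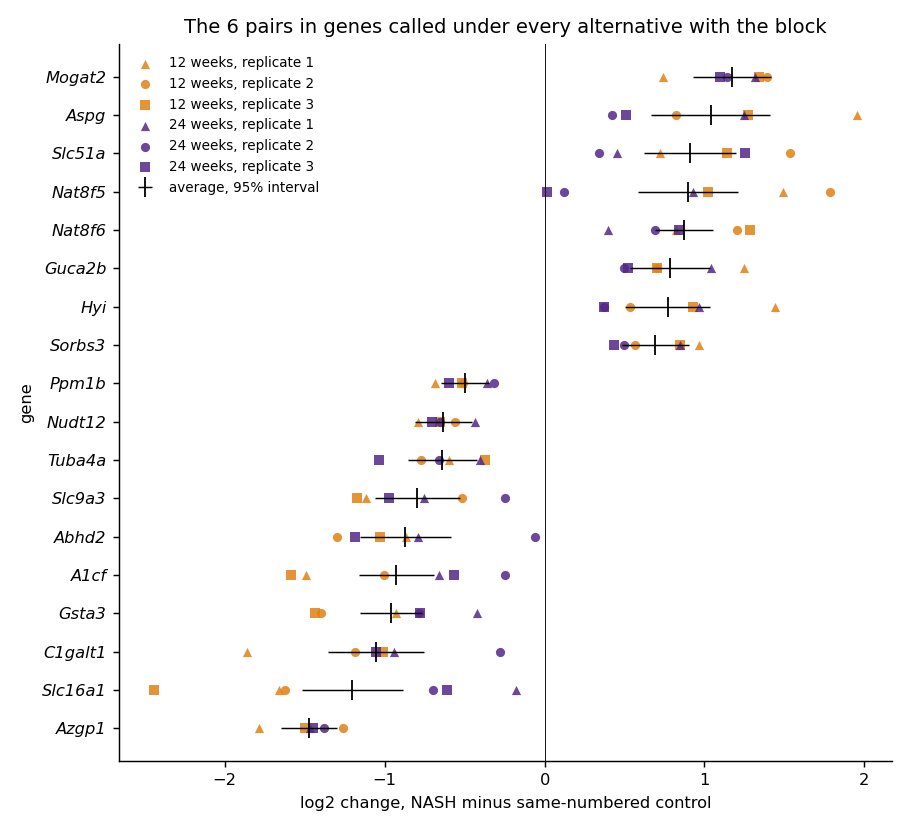
Log2 change of NASH minus control in each of the 6 pairs (coloured marks, x axis) for the named genes that stayed called under every alternative that kept the replicate block (y axis), with the average and its 95% interval in black. Mogat2 and Azgp1 show the least spread for their size, while Nat8f5 and Abhd2 have pairs close to 0.

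A few distal nephron genes, among them 3 of calcium handling, fell. Calb1, the calcium buffer of the distal convoluted tubule, read 13.48, 12.48 and 12.30 in the controls against 12.62, 11.02 and 11.14 in NASH at 12 weeks, and 13.89, 11.30 and 10.94 against 12.39, 10.81 and 10.31 at 24 weeks. Replicate 1 was high in each group and NASH was lower in every pair by at least 0.49. Calb1 fell by 1.01 (-1.44 to -0.59), or 2.02-fold (limma adjusted p = 0.016), a call lost without control replicate 3 at 12 weeks (0.0512). The calcium exchanger Slc8a1 fell by 0.997 (limma adjusted p = 0.0294), the calcium channel Trpv5 by 0.70 (0.036) and the kinase Wnk1, a regulator of salt transport, by 0.54 (0.0411). These 3 calls were lost without 6, 10 and 9 of the 12 libraries, with limma adjusted p up to 0.0785, 0.0871 and 0.107. In the list of 16 loop and distal tubule genes 4 fell and 0 rose, 1 was lower in all 6 pairs and 6 were above 0. The list's median was -0.16, with -0.22 at 12 weeks and 0.10 at 24 weeks. The number that fell was 2 with a block within each time and 1 with the length and GC trend removed. Its summed level was higher in NASH in 3 of 6 pairs. In bulk tissue, fewer cells of a type and less RNA per cell cannot be told apart, here and in every list of cell markers below. The water channel Aqp2 of the collecting duct rose by 0.92 (limma adjusted p = 0.0422), lost without 9 of the 12 libraries (up to 0.107). Of 15 measured collecting duct markers it was the only one called, and most of the others went the other way. In that list 6 were above 0, 0 moved the same way in all 6 pairs and the median was -0.13.

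Clock genes were called for the average although, by point values, their change lay mostly at 12 weeks. The molecular clock is a loop in which ARNTL with CLOCK or NPAS2 drives the period and cryptochrome genes and the output factor DBP, while NFIL3 opposes DBP at the same sites. Of 15 activators and repressors 3 rose and 3 fell, and of these only Per3 moved the same way in all 6 pairs. The number that rose was 1 with no mean-variance trend. With single libraries left out it lay between 1 and 3, and the number that fell between 2 and 3. Per3 read 6.27, 6.76 and 6.44 in the controls against 7.82, 8.33 and 8.38 in NASH at 12 weeks, and 6.71, 7.23 and 6.73 against 7.15, 7.76 and 6.82 at 24 weeks. NASH was clearly above the controls at 12 weeks and overlapped them at 24 weeks. Per3 rose by 1.02 (0.72 to 1.32; limma adjusted p = 0.00933), from 1.69 at 12 weeks and 0.35 at 24 weeks, and held in all libraries.

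Npas2 was at -2.61 at 12 weeks and -0.03 at 24 weeks, Arntl at -1.64 and 0.11, and Clock at -0.96 and -0.19. Their averages fell by 1.32, 0.76 and 0.58 (limma adjusted p = 0.00972, 0.016 and 0.00998), and only Arntl lost its call for a library, control replicate 3 at 12 weeks (0.0512). Among 8 output factors Dbp rose by 2.64 (1.71 to 3.57; limma adjusted p = 0.0103), made of 5.48 at 12 weeks and -0.20 at 24 weeks. By these point values the average of such genes does not describe both times, although a difference between the times did not pass for any of these 4. Hours of dissection are not given in the sources used here.

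Interferon-response genes leaned upward. Irf7, the transcription factor that amplifies type I interferon, read 7.14, 7.59 and 6.81 in the controls against 8.77, 7.84 and 8.47 in NASH at 12 weeks, and 7.72, 6.94 and 6.62 against 8.47, 7.93 and 8.50 at 24 weeks. All 6 NASH libraries were above all 6 controls, with NASH replicate 2 at 12 weeks nearest to them. Irf7 rose by 1.19 (0.75 to 1.63), or 2.28-fold (limma adjusted p = 0.0124), with 1.18 at 12 weeks and 1.20 at 24 weeks, and held in all libraries. Among 24 measured genes of the list 22 were above 0, 4 rose and 0 fell, and the median was 0.38. The number that rose was 9 after quantile normalization, 8 after median-of-ratios scaling and 1 with the length and GC trend removed. The other 3 were Ifit3 at 1.10, Gbp3 at 0.86 and Ifi35 at 0.60, each higher in 5 pairs, and each lost without at least 9 of the 12 libraries (limma adjusted p up to 0.0972, 0.0978 and 0.114). Only Irf7 moved the same way in all 6 pairs, and the list's median was -0.25 in the pair of replicate 2 at 12 weeks.

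Antigen presentation genes were all 15 above 0, with a median of 0.47, and 2 rose. Over the 6 pairs the median ran from -0.29, in replicate 2 at 12 weeks, to 1.48, in replicate 3 at 24 weeks, and it was 0.24 without NASH replicate 3 at 24 weeks. With the length and GC trend removed 0 were called in limma (3 at an unadjusted p under 0.05), and 1 with a block within each time. H2-T23, a non-classical class I gene, rose by 0.52 (limma adjusted p = 0.0286) and B2m, the class I light chain, by 0.64 (0.0481), both higher in all 6 pairs. Their calls were lost without 7 and 11 of the 12 libraries (limma adjusted p up to 0.0803 and 0.126). Macrophage markers moved with these lists, with 12 of 14 measured genes above 0, a median of 0.49 and 0 called in limma (5 at an unadjusted p under 0.05). Their summed level lay between 11.05 and 11.57 (control) and 10.98 and 12.07 (NASH) at 12 weeks, and between 10.70 and 11.88 against 11.71 and 12.60 at 24 weeks. It was higher in 4 of 6 pairs, and its part in the result was not tested. Lgals3bp, a secreted binding protein of galectin-3, was higher in all 6 pairs and rose by 0.85 (0.44 to 1.27; limma adjusted p = 0.0244), lost without control replicate 3 at 12 weeks, control replicate 3 at 24 weeks and NASH replicate 1 at 12 weeks (up to 0.0691).

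Red cell genes were higher in NASH. Hba-a1, an alpha globin chain, read 8.20, 8.95 and 8.92 in the controls against 11.17, 9.64 and 8.93 in NASH at 12 weeks, and 8.92, 8.70 and 7.94 against 10.47, 9.12 and 10.04 at 24 weeks. NASH replicate 1 at each time was the highest, and replicate 3 at 12 weeks differed by only 0.01. Hba-a1 rose by 1.29 (0.58 to 2.005; limma adjusted p = 0.0336), lost without 8 of the 12 libraries (up to 0.0907). Alas2, which starts haem synthesis in red cell precursors, read 7.19, 7.32 and 6.84 in the controls against 8.73, 7.55 and 7.27 in NASH at 12 weeks, and 7.39, 6.45 and 6.02 against 8.75, 7.31 and 8.12 at 24 weeks. All 6 pairs were higher, although the groups overlapped. Alas2 rose by 1.09 (0.63 to 1.55; limma adjusted p = 0.0161), lost without control replicate 3 at 24 weeks (0.0528). Of 8 measured red cell markers 5 rose and 0 fell, between 0 and 7 with single libraries left out. The number called was 1 with a block within each time, 1 with no mean-variance trend, 1 with the length and GC trend removed and 0 in replicates 2 and 3 only. The alpha globin copies, and the beta globin genes Hbb-bt and Hbb-b2, which hold identical values in the files, cannot be counted as separate genes. Summed red cell signal was higher in all 6 pairs, at 11.32 to 11.45 (control) and 11.37 to 13.19 (NASH) at 12 weeks and 10.41 to 11.70 against 11.16 to 12.76 at 24 weeks. How much blood the pieces held was not measured.

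Respiratory chain and ribosomal protein genes were higher by small amounts that went with transcript length and differed between pairs. Of 43 measured subunits of the respiratory chain and ATP synthase 41 were above 0, 20 rose, 0 fell and 25 were higher in all 6 pairs, with a median of 0.29. Over the 6 pairs the list's median ran from 0.034, in replicate 2 at 24 weeks, to 0.51, in replicate 1 at 12 weeks. Cox6a1 of cytochrome oxidase read 12.003, 12.58 and 12.40 in the controls against 12.93, 13.16 and 12.81 in NASH at 12 weeks, and 12.64, 12.83 and 12.50 against 12.81, 13.09 and 12.92 at 24 weeks. NASH was above the controls at 12 weeks and overlapped them at 24 weeks. Cox6a1 rose by 0.46 (0.29 to 0.63; limma adjusted p = 0.0129) and Ndufa13 of complex I by 0.42 (0.25 to 0.58; 0.0144), and both held in all libraries.

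All 35 cytosolic ribosomal protein genes were above 0, 10 rose, 0 fell and 16 were higher in all 6 pairs, with a median of 0.27. The list's median ran from 0.049 to 0.56 over the same pairs. Rps28, for example, rose by 0.41 (limma adjusted p = 0.0212), lost without replicate 3 of control or of NASH at 24 weeks (up to 0.0641), and Rpl27 by 0.34 (0.0259), lost without 6 of the 12 (up to 0.07). With the length and GC trend removed, 0 genes of either list were called in limma (3 and 2 at an unadjusted p under 0.05), and the medians were 0.02 for the respiratory chain and 0.01 for the ribosome. With a block within each time 18 and 3 were called, with no mean-variance trend 6 and 2, and in replicates 2 and 3 only 4 and 0. Without control replicate 3 at 24 weeks 2 and 0 were called, and without control replicate 2 at 24 weeks 13 and 12.

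**Figure D5:**
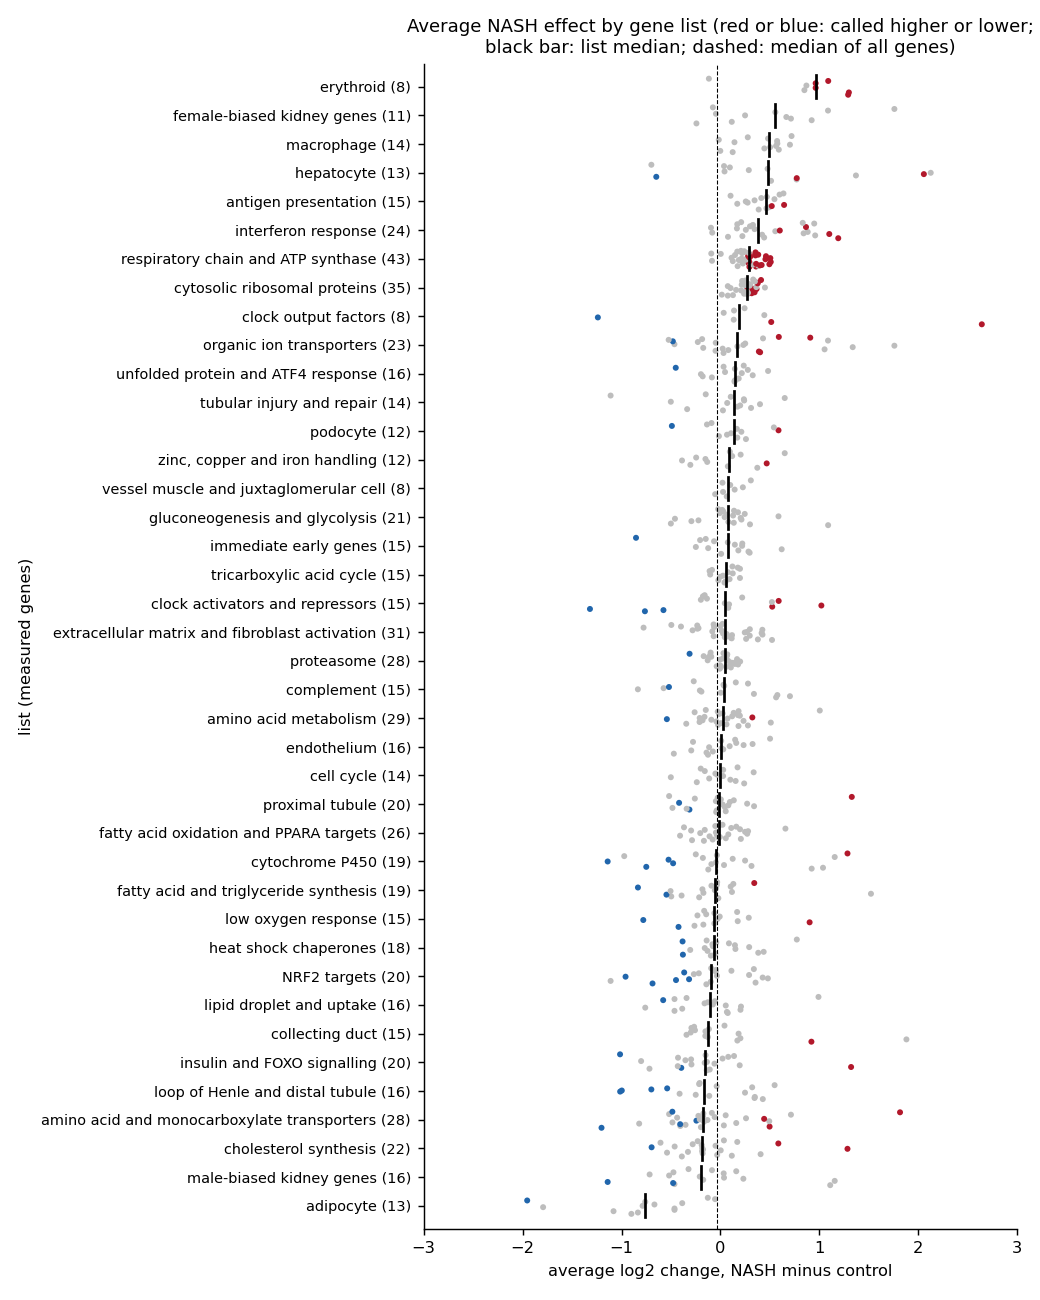
Average log2 change of NASH minus control (x axis) of the measured genes of each list with at least 5 of them (y axis, number in brackets), red where called higher, blue where called lower and grey where not called. Black bars are list medians and the dashed line is the median of all genes (-0.04). The respiratory chain and ribosomal lists are narrow with medians above 0, while lipid, sterol and transporter lists spread to both sides.

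Genes of scarring and of tubular injury gave no calls. Among 31 matrix and fibroblast genes 19 were above 0, 0 were called in limma (3 at an unadjusted p under 0.05) and the median was 0.04. Among 14 injury and repair genes 10 were above 0, 0 were called (4) and the median was 0.14. Col1a1, a chain of type I collagen, read 8.29, 8.95 and 8.51 in the controls against 9.42, 8.33 and 8.94 in NASH at 12 weeks, and 8.97, 8.38 and 8.05 against 9.11, 9.98 and 8.49 at 24 weeks. The groups overlapped at both times, and the average was 0.52 (-0.03 to 1.07; limma adjusted p = 0.198). Fn1, fibronectin, was at 0.42 (-0.37 to 1.21; 0.466) and Acta2, the smooth muscle actin of myofibroblasts, at 0.06 (-0.56 to 0.68; 0.903). The injury marker Havcr1, KIM-1, read 6.39, 5.27 and 4.89 in the controls against 4.68, 5.83 and 7.16 in NASH at 12 weeks, and 4.61, 7.29 and 6.49 against 4.63, 4.90 and 7.91 at 24 weeks. It spread widely within each group, and its average was 0.03 (-1.26 to 1.31; limma adjusted p = 0.983). Each of these intervals reaches above 0.5 on the log2 scale.

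Plasma proteins best known from the liver were higher in some cases. Ttr, the carrier of thyroxine and of retinol-binding protein, read 7.22, 10.06 and 9.78 in the controls against 10.37, 12.60 and 12.40 in NASH at 12 weeks, and 8.43, 8.81 and 8.92 against 10.67, 10.14 and 9.40 at 24 weeks. NASH was above the controls at each time. Ttr rose by 2.06 (1.13 to 2.98), or 4.16-fold (limma adjusted p = 0.0192), lost without control replicate 3 at 24 weeks (0.0554). Rarres2, the chemoattractant adipokine chemerin, read 7.78, 8.53 and 7.93 in the controls against 8.26, 9.97 and 9.66 in NASH at 12 weeks, and 8.30, 9.20 and 8.10 against 8.49, 10.78 and 11.44 at 24 weeks. Replicate 1 differed little between the groups and replicates 2 and 3 more. Rarres2 rose by 1.46 (0.76 to 2.16; limma adjusted p = 0.0235), lost without control replicate 3 at 12 or at 24 weeks (up to 0.0644) and with the length and GC trend removed.

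Of 13 measured liver cell markers, Ttr among them, 2 rose and 1 fell, Apob being the gene that fell, and 11 were above 0. Apoa2, of high-density lipoprotein, was higher in 5 pairs at 0.77, lost without 11 of the 12 libraries (limma adjusted p up to 0.113). The summed level of the 13 was higher in 4 of 6 pairs, and lay between 13.60 and 15.42 (control) and 13.50 and 15.86 (NASH) at 12 weeks. At 24 weeks it was 13.73 to 15.46 against 13.74 to 15.56. Its part in the result was not tested.

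Car3, a carbonic anhydrase abundant in fat, liver and muscle, had the largest average decrease among the genes named by rule, and also one of the least even. Car3 read 10.35, 10.13 and 10.54 in the controls against 10.32, 9.25 and 8.73 in NASH at 12 weeks, and 13.17, 9.99 and 9.65 against 7.62, 9.41 and 6.78 at 24 weeks. The control replicate 1 at 24 weeks was far above all others, and replicate 1 at 12 weeks differed by only 0.03. Car3 fell by 1.95 (-3.09 to -0.82; limma adjusted p = 0.039), lost without 9 of the 12 libraries (up to 0.097). All 13 fat cell markers, of which Car3 is one, were below 0, with medians of 1.08 at 12 weeks and -2.80 at 24 weeks. Their summed level was 13.09 to 14.38 (control) and 13.38 to 14.67 (NASH) at 12 weeks, and 13.82 to 15.42 against 12.64 to 13.52 at 24 weeks, with the highest value in control replicate 1 at 24 weeks. The part of fat attached to the pieces in the result was not tested.

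Among 19 measured cytochrome P450 genes of the list 1 rose, Cyp51, and 4 fell, Cyp4a12a by 1.14, Cyp2d12 by 0.75, Cyp4b1 by 0.52 and Cyp2j13 by 0.48. These decreases were lost without 9, 10, 10 and 9 of the 12 libraries, with limma adjusted p up to 0.0938, 0.0949, 0.0955 and 0.129. With a block within each time 1 gene of the list rose and 2 fell, and with the length and GC trend removed 1 rose and 0 fell. Cyp2a5, a coumarin hydroxylase outside the list, was lower in all 6 pairs and fell by 1.26 (-1.83 to -0.68; limma adjusted p = 0.0196), lost without replicate 3 of control at either time and of NASH at 24 weeks (up to 0.0559), and its reads may be shared with the near-identical Cyp2a4, which was at 0.92 (limma adjusted p = 0.0755). Cyp4a12b, a close copy of the fatty acid hydroxylase Cyp4a12a, was lower in all 6 pairs and fell by 0.91, lost without 9 of the 12 libraries (limma adjusted p up to 0.11), and how reads were divided between the copies is uncertain. Genes known to be higher in male kidney gave 2 decreases and 0 rises among 16, the decreases being Cyp4a12a and Cyp2j13, with a median of -0.19, and genes known to be higher in female kidney 0 calls in limma among 11 (4 at an unadjusted p under 0.05), with a median of 0.55. The pairs did not share these medians. Over the 6 pairs they ran from -0.46 to 0.20 for the male list and from -0.76 to 1.06 for the female list. The female list's median was 0.05 at 12 weeks and 0.56 at 24 weeks, and 1 of its genes was higher in all 6 pairs. Kap, the androgen-regulated gene of the proximal tubule, read 12.39, 18.69 and 18.53 in the controls against 16.87, 18.995 and 19.23 in NASH at 12 weeks, and 15.09, 18.38 and 18.21 against 16.38, 18.21 and 18.25 at 24 weeks. It was far lower in the controls of replicate 1 than elsewhere, and its average was 1.11 (limma adjusted p = 0.174). Xist was at -0.24 (0.644).

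Signalling and stress genes changed singly. Of 15 low oxygen response genes 4 were above 0, 1 rose and 2 fell, with a median of -0.06. Of 20 insulin and FOXO signalling genes 5 were above 0, 1 rose and 2 fell, with a median of -0.15. Of 18 heat shock chaperones 7 were above 0, 0 rose and 2 fell, with a median of -0.06. Ndrg1, a gene known to respond to low oxygen and abundant in the tubule, read 16.11, 15.87 and 16.27 in the controls against 14.87, 14.69 and 14.40 in NASH at 12 weeks, and 16.02, 16.26 and 16.34 against 15.82, 16.20 and 16.20 at 24 weeks. NASH was well below the controls at 12 weeks, and at 24 weeks the groups overlapped. Ndrg1 fell by 0.78 (-1.06 to -0.50; limma adjusted p = 0.0104), and Egln3, the oxygen-sensing prolyl hydroxylase, rose by 0.90 (0.53 to 1.27; 0.0154), both holding in all libraries, while Hif1a fell by 0.42 (0.024) and lost its call without 7 of the 12 (limma adjusted p up to 0.0685). Hsp90aa1, the inducible form of the chaperone HSP90, read 13.24, 12.96 and 12.96 in the controls against 12.67, 12.80 and 12.85 in NASH at 12 weeks, and 13.12, 13.03 and 12.998 against 12.62, 12.60 and 12.51 at 24 weeks. All 6 NASH libraries were below all 6 controls. Hsp90aa1 fell by 0.38 (-0.54 to -0.22; limma adjusted p = 0.016) and held in all libraries. Igf1r, the receptor of insulin-like growth factor 1, was lower in all 6 pairs and fell by 0.40 (limma adjusted p = 0.0218), lost without 4 of the 12 (up to 0.0636), and Igfbp1, an insulin-repressed binding protein of that factor, was at 1.32, lost without 10 (up to 0.0795).

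The remaining lists held few calls. Among 21 glucose and glycolysis genes, 15 tricarboxylic acid cycle genes and 14 cell cycle genes 0 passed in limma, with 7, 3 and 1 at an unadjusted p under 0.05, and the number above 0 was 15, 10 and 7. Of the glucose and glycolysis genes 2 were called higher with a block within each time and under either other scaling, and with array weights 2 higher and 1 lower. Of the tricarboxylic acid cycle genes 1 was called under median-of-ratios scaling, and of the cell cycle genes 1 in replicates 2 and 3 only. Of 28 proteasome genes 1 fell, Psmd11 by 0.31, lost without 7 of the 12 libraries (limma adjusted p up to 0.0749). Among 15 complement genes 1 fell, C2 by 0.52, lost without 11 (limma adjusted p up to 0.109). Of 12 podocyte markers 1 rose, the cell cycle inhibitor Cdkn1c, by 0.59, and 1 fell, the scaffold Magi2, by 0.49, lost without 9 and 12 (limma adjusted p up to 0.108 and 0.0974). Among 12 genes of zinc, copper and iron handling the zinc carrier Slc39a5 rose by 0.47 and was higher in all 6 pairs, lost without control replicate 3 at 12 weeks, control replicate 1 at 24 weeks and NASH replicate 1 at 12 weeks (limma adjusted p up to 0.0551). Endothelial markers (16) gave 0 calls in limma, 0 at an unadjusted p under 0.05 and a median of 0.01.

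At the threshold itself, Wdr3 at -0.39 and Cope at 0.27 were the last genes inside it (limma adjusted p = 0.0498), and Limch1 at -0.39 and Sox6 at -0.29 the first outside (0.0501 and 0.0503).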

How the data were processed

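Kidney cortex RNA was profiled in 12 libraries, 3 in each of 4 groups. BWA, limma and the mouse build mm10 are named, without versions or roles, per the submitters' processing notes. The deposited values are log2 values, normalized by the authors per the file headers, for 11614 genes per library. Below 60 reads, 85.5% to 91.1% of values were whole multiples of a step taken as 1 read, which gives the estimated depth. How genes were filtered before deposition is not stated, and 16 symbols had been turned into dates.

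The deposited log2 values were fitted as they are with limma 3.58.1 in R 4.3.3, as 4 group means plus the replicate number as a block, with a mean-variance trend and 2-sided moderated tests. P-values were adjusted by Benjamini-Hochberg over 11614 genes, with genes called below an adjusted p of 0.05. "Rose" and "fell" are used of called genes. The block was fitted because libraries were matched by number. What the numbers mean is not in the labels. Deviations from the group means correlated by a median of 0.70 between replicates numbered 1 (0.548 to 0.742), 0.40 between those numbered 2 (0.261 to 0.529) and 0.434 between those numbered 3 (0.187 to 0.638). Every same-numbered pair was thus above 0.1, but so were replicates 2 with 3 (median 0.365).

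The 15 called genes per direction with the largest change and 6 like pairs, and the 10 per direction with the largest smallest pair, at or above a median level of log2 8.71, are named by rule, with 2 to 4 genes of each list by smallest p and Col1a1, Fn1, Acta2, Havcr1, Cpt1a, Plin2, Slc34a1, Kap and Xist. Predicted loci are not named. A few other genes are not reported here. Genes of small families outside this rule were added where a list's calls were named. The members, rule and 44 lists (688 of 774 genes measured) were chosen with earlier results of these data known. Lists are described by counts, not tested.

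The fit was tested on simulated data: of 100 genes changed by 1 on the log2 scale 82% were recovered, of 100 changed by 2 92%, with 11 false calls. Whether the real libraries match by replicate number, on which every call rests, was not tested in this way. Alternatives were 10 other settings and 12 fits without 1 library each. Promoters are RefSeq sequences on GRCm38.p6. Python 3.11.15 with pandas 2.3.3, numpy 2.4.6 and matplotlib 3.10.9 made the tables and figures.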

Additional observations from a re-analysis of the deposited data

Results flagged for a closer look

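The effect of NASH on Nfil3, a repressor that opposes DBP in the clock output, differed between the times. Its change at 24 weeks minus that at 12 weeks was 3.24 on the log2 scale (limma interaction contrast with the replicate block, adjusted p = 0.034). Nfil3 read 8.48, 7.93 and 8.20 in the controls against 6.39, 4.29 and 5.35 in NASH at 12 weeks, and 8.01, 6.85 and 6.93 against 8.24, 6.94 and 7.76 at 24 weeks. All 3 pairs were lower at 12 weeks and all 3 higher at 24 weeks, so its average change of -1.24 describes neither time. Over all genes, 410 (3.53%) had 3 like pairs at each time in opposite directions, and 5 of these were called for the average. The call for Nfil3 was lost without 7 of the 12 libraries (control replicates 2 and 3 at each time, NASH replicate 3 at 12 weeks and NASH replicates 2 and 3 at 24 weeks), with limma adjusted p up to 0.222, and with no mean-variance trend (0.0734). The difference lay between 2.95 and 3.50 with single libraries left out. Without the block 0 genes passed this contrast in limma, with 425 at an unadjusted p under 0.05.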

How the results depend on the processing

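The fit without the replicate block, that is with no pairing, called 0 genes for the average, 0 higher and 0 lower, 6 at 12 weeks, 0 at 24 weeks and 0 for the difference between the times. Of the 1207 genes called with the block, 1187 kept their sign under all alternatives that tested them. A gene's average is the same number without the block, with a block by time, with no mean-variance trend and at either lowest level. Those settings could not change a sign. Called genes for the average fell to 729 (168 higher, 561 lower) with no mean-variance trend, 337 (70 and 267) with the length and GC trend removed and 185 (73 and 112) in replicates 2 and 3 only. Quantile normalization gave 534 higher and median-of-ratios scaling 628. Genes with all pairs alike were 366 higher with the length and GC trend removed, and 1490 lower in the 4 pairs of replicates 2 and 3.

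The 12-week count was 926 with no trend, 485 with the length and GC trend removed, 2297 with array weights and 632 in replicates 2 and 3. The 24-week count was 2 with array weights and 25 in replicates 2 and 3. The difference between the times gave 10 genes with a block by time, 4 after quantile normalization, 0 at a mean log2 value of at least 8, 0 with no trend, 93 with array weights and 91 in replicates 2 and 3.

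With single libraries left out, called genes numbered 210 to 1093 for the average (56 to 266 higher, 154 to 827 lower), 253 to 1533 at 12 weeks, 1 to 4 at 24 weeks and 0 to 29 for the difference, and 738 to 1180 genes were higher and 999 to 2010 lower in the 5 pairs left. The cause was not tested; fewer samples enter the last 2 kinds of fit.

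Rps15 turned to -0.0059 with the length and GC trend removed. Slc34a1 was at 0.0032 with median-of-ratios scaling and 0.014 in replicates 2 and 3. Without single libraries, averages near 0 changed sign, over ranges of -0.22 to 0.25 for Acta2, -0.44 to 0.57 for Havcr1, -0.086 to 0.20 for Plin2, -0.12 to 0.021 for Slc34a1 and -0.47 to 0.079 for Xist. Reads numbered about 7170000 to 8280000 in the 3 shallowest libraries, all NASH, which limits genes of low level most.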
